A study of Mus musculus with 8 samples.

Results

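Basal cells of the mouse mammary gland that carried a high level of Tspan8 and no Lgr5 signal at sorting (labelled Lgr5-T8hi) were compared with basal cells that carried the Lgr5 signal and no Tspan8 (labelled Lgr5+T8-). The libraries were chosen by their population label alone, which gave 4 of the 8 libraries in the series, 2 for each of these single-marker populations. All were sorted from untreated females of the C57BL/6 strain, aged 10 weeks, with the genotype Lgr5-GFP-IRES-CreERT2. That allele places green fluorescent protein and a tamoxifen-inducible Cre at the Lgr5 locus, so the same engineered locus was present in both populations. Replicate 1 of each population belonged to batch 1 and replicate 2 to batch 2. Nothing in the labels states if replicates are separate or pooled mice, so the spread that p-values measure is that between these samples alone and may be technical. Because the populations differ in both sort markers at once, the part of each marker cannot be told apart here.

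Basal cells form the outer layer of the mammary ducts and hold both contractile myoepithelial cells and cells able to rebuild the gland after transplantation. Lgr5 is a receptor for R-spondins, secreted proteins that strengthen Wnt signalling, and it marks stem cells in several epithelia. Tspan8 is a tetraspanin, a membrane protein that groups other proteins into microdomains of the cell surface. Luminal progenitors, the cells of the inner layer that give rise to milk-secreting cells, are defined by genes such as Elf5, Kit and Aldh1a3.

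Total counts were 38384875 and 35121694 in the Lgr5-T8hi libraries and 33976135 and 24571300 in the Lgr5+T8- libraries, replicate 1 first. In the smallest of these, a floor of 3 counts corresponded to 0.122 counts per 1000000 counts (CPM), a limit that covers counting error only. Levels are given as CPM for each library, with replicates 1 and 2 in that order. Differences are log2 fold changes of Lgr5-T8hi minus Lgr5+T8-, with the standard error of the fit. The fit had batch as a block and took its spread from all 8 libraries. Adjusted p-values are from edgeR's quasi-likelihood test with Benjamini-Hochberg adjustment over all genes tested, unless another setting is named.

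The sort markers check the labels and are no finding, because the cells were gated on them. Tspan8 (Entrez 216350, chromosome 10, 115816817 to 115849893, GRCm38.p6) was at 167 and 150.2 CPM in Lgr5-T8hi cells and at 10.6 and 6.82 CPM in Lgr5+T8- cells, a difference of 4.20 ± 0.13 (adjusted p = 1.41e-08). The Lgr5 gene (Entrez 14160) lies at 115450314 to 115587780 of the same chromosome. Its level was 119 and 129 CPM in Lgr5-T8hi cells against 185 and 212 CPM in Lgr5+T8- cells, a difference of -0.68 ± 0.11 (adjusted p = 0.00354). Both genes lay on the labelled side with no overlap between the populations. The cells sorted as Lgr5-negative thus still held Lgr5 transcript. Its adjusted p was 0.134 without the batch block, 0.058 when replicate 2 of Lgr5+T8- was left out and 0.074 when replicate 1 of Lgr5-T8hi was.

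Of 16526 genes tested, 710 differed between the single-marker populations (4.3% of the genes tested). In Lgr5-T8hi cells 561 were higher (3.39%) and 149 lower (0.902%). All 710 had the same sign in both batches, which the fit with batch as a block itself favours, so it is no separate support. The higher genes were mostly of low level and large change, with a median of 4.67 CPM over the 4 libraries and a median log2 fold change of 1.31. Lower genes were mostly abundant and changed little, with medians of 39.5 CPM and -0.58. Calls were uneven by level: 199 of 2836 genes at 1 to 5 CPM were higher, and 19 of 2212 at 100 CPM or more. Each list count below is to be read beside the shares of 3.39% and 0.902%, and no list was tested as a set. The lists were chosen with earlier results of these data known, so their counts and medians are descriptions only. Both Lgr5-T8hi libraries lay above both Lgr5+T8- libraries in 15.3% of all genes tested and below them in 14.7%, so a lack of overlap between the populations is common and is given below as a description of the levels only. A difference of at least 2-fold was found in 376 higher and 20 lower genes. Without the batch block the counts were 54 and 3, all of them among the 710. With replicate 2 of Lgr5+T8- left out 260 genes were higher, the fewest for any library, and 780 with replicate 1 of Lgr5-T8- left out, the most. Lower genes ranged from 20 with replicate 1 of Lgr5-T8hi left out to 350 with replicate 2 of Lgr5-T8- left out.

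**Figure D1:**
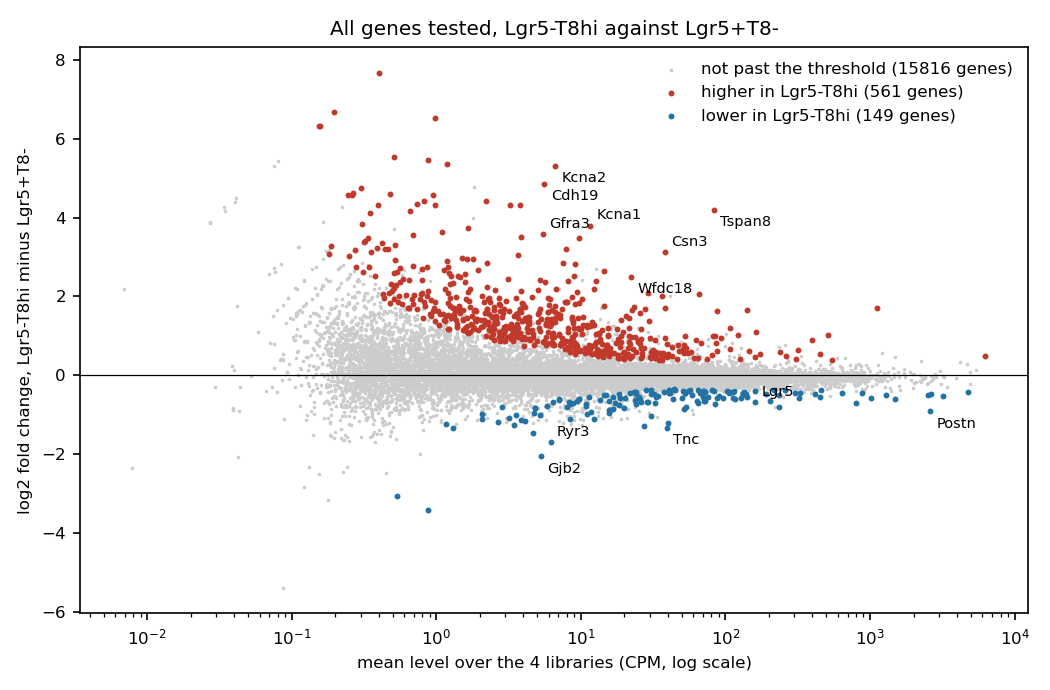
Each point is 1 of the genes tested, with its mean level over the 4 libraries on a log axis (CPM) and its log2 fold change, Lgr5-T8hi minus Lgr5+T8-, on the vertical axis. Red points (561 genes) are higher and blue points (149 genes) lower in Lgr5-T8hi cells, and the red points spread towards low levels and large differences while most blue points lie between 0 and -1.

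In the 2 batches the log2 difference correlated at r = 0.527 across genes, which are not independent replicates.

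**Figure D2:**
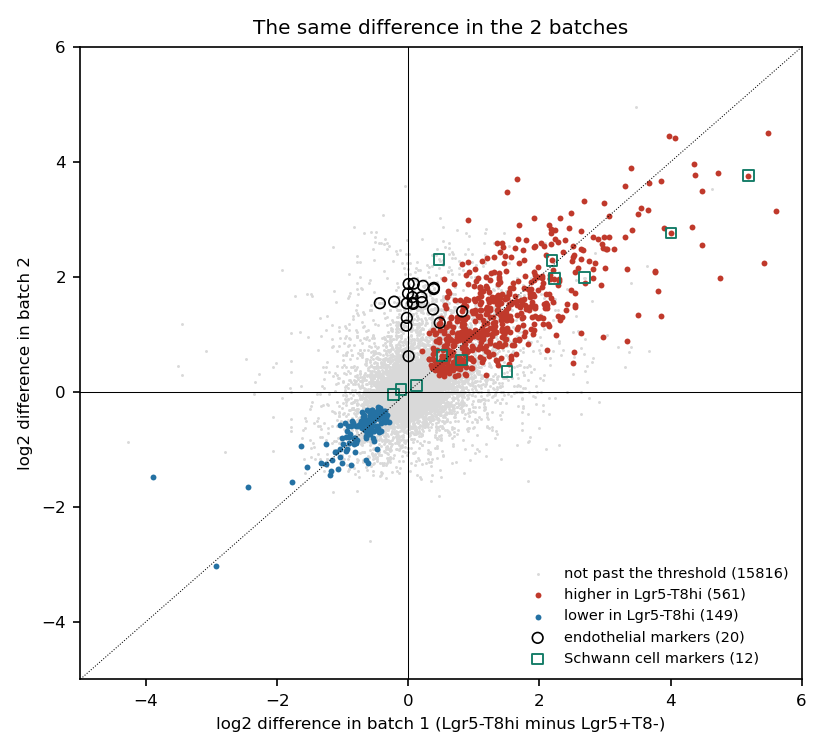
The log2 difference between the populations in batch 1 (horizontal) is plotted against that in batch 2 (vertical) for each gene tested, with the dotted line marking equal differences. Called genes lie in the quadrants of equal sign, and endothelial markers (open circles) have a median of 0.07 in batch 1 and 1.55 in batch 2. The Schwann cell markers with the largest differences (open squares) are above 0 in both batches.

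The genes with the highest log2 fold changes at a mean of 5 CPM or more were led by genes known from axons and their glia. Kcna2, a voltage-gated potassium channel of axons, stood at 18.2 and 7.70 CPM in Lgr5-T8hi cells against 0.346 and 0.279 CPM, a difference of 5.31 ± 0.62 (adjusted p = 0.00706). Cdh19, a cadherin of the Schwann cell lineage, stood at 17.1 and 4.58 CPM against 0.409 and 0.279 CPM, a difference of 4.86 ± 0.84 (adjusted p = 0.0445). Both genes were low in each Lgr5+T8- library, and in Lgr5-T8hi cells replicate 1 held more than replicate 2. The related channel Kcna1 differed by 3.79 ± 0.55, Gfra3, a co-receptor for the neurotrophic factor artemin, by 3.58 ± 0.36, the neural adhesion molecule L1cam by 3.21 ± 0.40 and Adam11, an ADAM family member expressed in neurons, by 2.84 ± 0.35. Other leading genes encode secreted or transport proteins. Coch, a secreted matrix protein best known from the inner ear, differed by 3.48 ± 0.30, Thbs4, a thrombospondin, by 2.81 ± 0.32, and the collagen chain Col5a3 by 2.65 ± 0.33. Clic6, of the chloride intracellular channel family, differed by 2.43 ± 0.26. The populations did not overlap for any of these genes. The call was lost for Kcna2 without Lgr5+T8- replicate 1 (adjusted p = 0.0589) or replicate 2 (0.0569) and for L1cam without Lgr5+T8- replicate 2 (0.0518). Cdh19 lost it without either Lgr5+T8- library (0.232 and 0.197) or either Lgr5+T8hi library (0.086 and 0.134). Kcna1 and Col5a3 lost it without replicate 1 (0.0693 and 0.0649) or 2 (0.124 and 0.0644) of Lgr5+T8-, and likewise for replicate 1 (0.0787 and 0.0593) or 2 (0.0882 and 0.0793) of Lgr5-T8-.

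**Figure D3:**
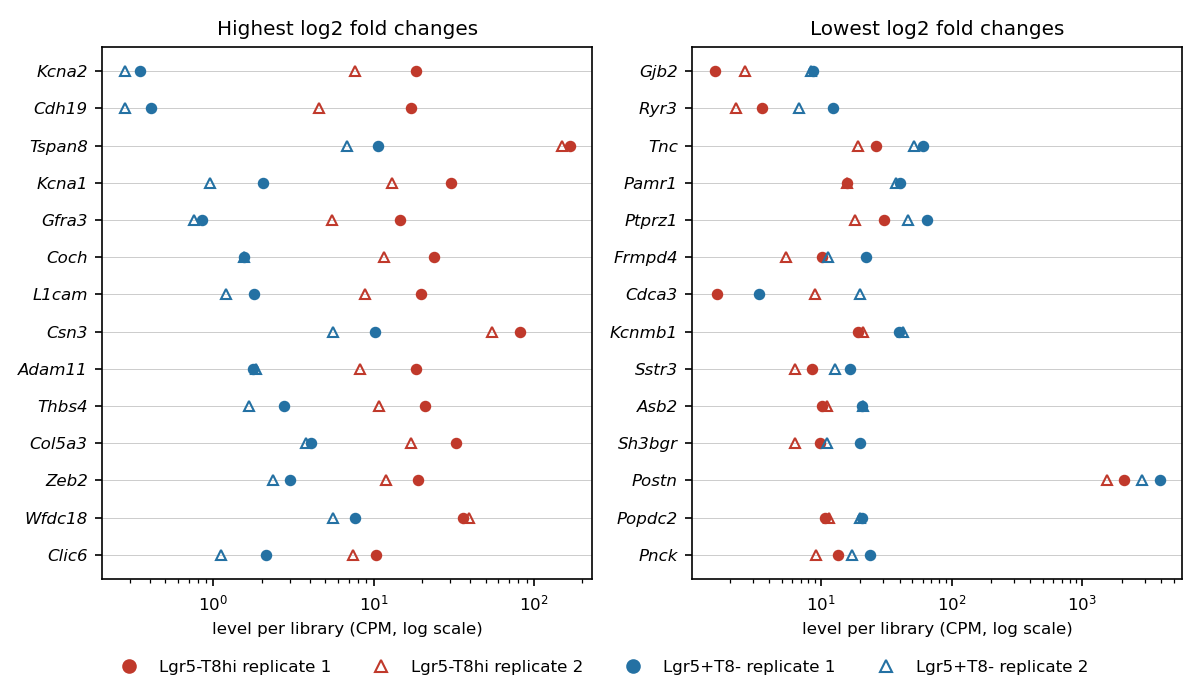
The level of each gene in each of the 4 libraries is plotted on a log axis (CPM) for those named in the text of the 15 highest log2 fold changes (left) and the 15 lowest (right) among called genes that averaged 5 CPM or more and had equal sign in both batches. Filled circles are replicate 1 and open triangles replicate 2, and the Lgr5-T8hi points (red) lie to the right of the Lgr5+T8- points (blue) for every gene on the left.

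Genes of luminal progenitors were higher in Lgr5-T8hi cells. Of 19 members tested, 12 were higher and 0 lower, with a median log2 fold change of 1.43 against -0.02 over all genes tested. Elf5, the transcription factor that drives the alveolar fate (Entrez 13711, chromosome 2, 103412098 to 103450989), was at 5.58 and 7.70 CPM in Lgr5-T8hi cells against 0.819 and 0.718 CPM, a difference of 3.06 ± 0.27 (adjusted p = 0.000133). Ehf, an epithelial factor of the same ETS family, stood at 10.4 and 11.8 CPM against 2.21 and 2.67 CPM, a difference of 2.19 ± 0.17. Aldh1a3, a retinaldehyde dehydrogenase, stood at 22.4 and 18.0 CPM against 5.83 and 3.03 CPM, a difference of 2.19 ± 0.22. In all 3 genes both Lgr5-T8hi libraries lay well above both Lgr5+T8- libraries. Cd14, a co-receptor for lipopolysaccharide, differed by 1.45 ± 0.14, the nucleoside transporter Slc28a3 by 3.52 ± 0.32 and the calcium-activated potassium channel Kcnn4 by 2.37 ± 0.36. Kit, the receptor for stem cell factor, was named after its values were seen. It stood at 19.996 and 22.8 CPM against 5.26 and 2.75 CPM, a difference of 2.39 ± 0.29. Kit lost its call without Lgr5-T8- replicate 1 (adjusted p = 0.0566) or 2 (0.0527). The count of higher members was 9 to 11 when 1 library was left out, and 5 without the batch block.

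Milk genes followed the same direction, although the main caseins were hardly detected. Of 13 milk protein and fat globule genes tested, 7 were higher and 0 lower. Csn3, kappa-casein, which keeps casein micelles in solution (Entrez 12994, chromosome 5, 87925579 to 87932550), was at 81.4 and 54.7 CPM in Lgr5-T8hi cells against 10.2 and 5.54 CPM, a difference of 3.11 ± 0.14 (adjusted p = 1.35e-06). Wfdc18, a member of the whey acidic protein family, stood at 36.0 and 39.5 CPM against 7.59 and 5.54 CPM, a difference of 2.50 ± 0.18. Lalba, the lactose synthase cofactor alpha-lactalbumin, stood at 3.52 and 2.64 CPM against 0.221 and 0.239 CPM, a difference of 3.72 ± 0.37. These genes were high in both libraries of the Tspan8 population and low in both of the Lgr5 population. The fat globule membrane protein Btn1a1 differed by 2.37 ± 0.22 and Xdh, which binds it there, by 0.56 ± 0.11. A further 6 listed genes were not tested because their counts were too low, among them the beta-casein gene Csn2 with 0 and 9 counts against 0 and 2. The median of the list was 0.58, and 1.75 without Lgr5+T8- replicate 1. Without the batch block 4 members were higher, and the same number without Lgr5-T8hi replicate 1. Xdh lost its call without replicate 1 of Lgr5-T8hi (adjusted p = 0.159) and without either Lgr5+T8- library (0.133 and 0.0518).

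Genes shared by all luminal cells showed little of this difference. Of 19 pan-luminal genes, 2 were higher and 0 lower, with a median of 0.14. The keratin gene Krt8 stood at 746 and 523 CPM against 761 and 504 CPM (0.01 ± 0.10), and the surface marker Epcam at 683 and 477 CPM against 674 and 517 CPM (-0.05 ± 0.10). Both overlapped fully between the populations, and replicate 1 was the higher library in each. These values stand beside the progenitor and milk gene differences, and the part of luminal cells in those was not tested. In the hormone-sensing list, 2 of 20 genes were higher and 0 lower, with a median of 0.45. The higher members were Foxa1, a cofactor of the oestrogen receptor, at 10.2 and 8.60 CPM against 5.83 and 3.51 CPM (1.02 ± 0.17), and the growth factor Areg (0.44 ± 0.11, adjusted p = 0.0376). Without Lgr5+T8- replicate 2 the hormone-sensing count was 0 (Foxa1 0.0673, Areg 0.106), and without Lgr5+T8- replicate 1 it was 7. Leaving out replicate 1 of Lgr5+T8- gave 5 pan-luminal genes, leaving out replicate 1 of Lgr5-T8- gave 0, and both counts were 0 without the batch block.

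Tight junction genes, which seal the luminal layer, gave 7 higher and 0 lower of 21, with a median of 0.49. Cldn1 stood at 14.6 and 12.2 CPM in Lgr5-T8hi cells against 5.20 and 6.46 CPM, a difference of 1.21 ± 0.18 (adjusted p = 0.00274). Tjp3, a scaffold of the junction, differed by 1.67 ± 0.34, Cldn10 by 1.15 ± 0.26 and Marveld2 by 0.68 ± 0.13. Cldn7 and Cldn4, which are also the higher pan-luminal members, differed by 1.06 ± 0.22 and 0.99 ± 0.20. Both lost their call without either Lgr5-T8- library, either Lgr5+T8hi library or Lgr5-T8hi replicate 2. Ocln, occludin, overlapped between the populations (34.2 and 18.8 CPM against 24.3 and 13.4 CPM) and differed by 0.49 ± 0.12. Of these genes Cldn1 alone kept its call whichever library was left out. The lost calls had an adjusted p of 0.0596 to 0.254 for Tjp3, Cldn10 and Marveld2 and of 0.0603 to 0.357 for Cldn7, Cldn4 and Ocln. The count fell to 1 without Lgr5-T8hi replicate 2 and to 0 without the batch block.

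**Figure D4:**
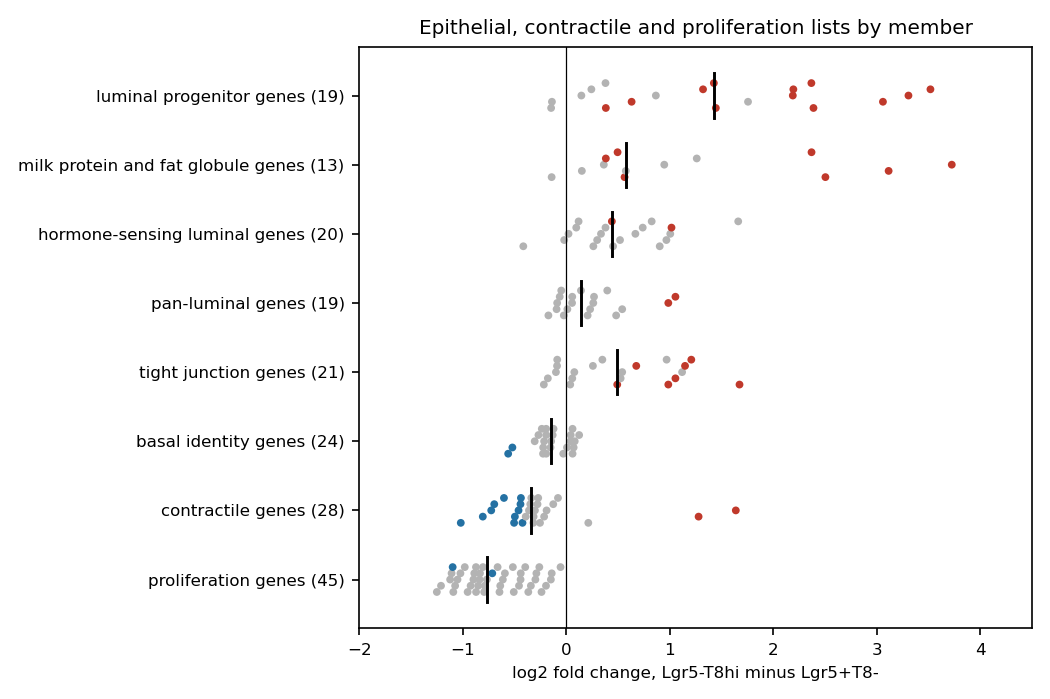
Each point is the log2 fold change, Lgr5-T8hi minus Lgr5+T8-, of 1 tested member of the list named at the left, with the number of members in brackets. Red points are higher and blue points lower calls, black bars are medians, and the luminal progenitor median of 1.43 stands to the right of 0 while the contractile median of -0.34 stands to the left.

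Contractile genes, with which myoepithelial cells squeeze milk towards the nipple, were lower in Lgr5-T8hi cells where they passed the test, with a few exceptions. Of 28 tested, 11 were lower, 2 higher and 15 without a call, and the median of -0.34 was alike in both batches (-0.35 and -0.33). Kcnmb1, a subunit of the smooth-muscle calcium-activated potassium channel (Entrez 16533, chromosome 11, 33962955 to 33973641), stood at 19.1 and 21.1 CPM against 39.4 and 42.1 CPM, a difference of -1.02 ± 0.09 (adjusted p = 0.000179). Actg2, the enteric smooth-muscle actin, stood at 137 and 204 CPM against 254 and 338 CPM, a difference of -0.81 ± 0.10 (adjusted p = 0.000962). Both genes lay lower in the Lgr5-T8hi libraries with no overlap. The actin-binding protein Synpo2 differed by -0.72 ± 0.09 and Mrvi1, a substrate of the cGMP-dependent kinase, by -0.60 ± 0.09. Acta2, alpha smooth-muscle actin, was named after its values were seen. It stood at 4099 and 4019 CPM against 5676 and 5214 CPM, a difference of -0.42 ± 0.10 (adjusted p = 0.0354). The higher members were Des, desmin, at 17.8 and 11.5 CPM against 6.36 and 5.58 CPM (1.28 ± 0.14), and Myocd, myocardin, a coactivator of smooth-muscle genes, at 3.79 and 1.76 CPM against 1.10 and 0.638 CPM (1.64 ± 0.27). Des is also a listed pericyte marker. The number of lower members ran from 3 without Lgr5-T8hi replicate 1 to 20 without Lgr5-T8- replicate 2 and was 1 without the batch block. Without Lgr5-T8hi replicate 1 the adjusted p was 0.071 for Mrvi1, 0.633 for Acta2 and 0.0826 for Myocd. Acta2 also lost its call without Lgr5-T8hi replicate 2 (0.279), either Lgr5+T8- library (0.23 and 0.161) or either Lgr5+T8hi library (0.0846 and 0.0729), and Myocd without Lgr5+T8- replicate 1 (0.0535).

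Serum response factor controls many contractile genes through the CArG box, whose letters are CC, then 6 letters each A or T, then GG. The box was searched on both strands in the 250 bases before each RefSeq start (GRCm38.p6), which were matched for 23 of the 28 contractile genes. It was present for 5 of them (21.7%) and for 1.62% of all 27025 genes in the table. Among the lower contractile genes with a window, Myl9, a regulatory myosin light chain, alone held it, and its window is shown because it joins the motif to a gene that differed. Myl9 stood at 557 and 521 CPM in Lgr5-T8hi cells against 821 and 647 CPM, with a difference of -0.44 ± 0.11 (adjusted p = 0.0489), and was likewise named after its values were seen. That call was lost without either Lgr5-T8hi library (0.686 and 0.212), either Lgr5+T8- library (0.399 and 0.089) or either Lgr5+T8hi library (0.102 and 0.0777). The window is chr2:156775214-156775463 on the plus strand, with the box in capitals starting 161 bases before the start:
Myl9: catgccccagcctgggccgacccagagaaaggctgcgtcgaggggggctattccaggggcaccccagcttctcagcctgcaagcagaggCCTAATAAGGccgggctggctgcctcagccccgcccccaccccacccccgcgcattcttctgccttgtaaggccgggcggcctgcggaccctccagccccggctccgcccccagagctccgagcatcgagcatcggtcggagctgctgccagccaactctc

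Of 24 basal identity genes tested, 2 were lower and 0 higher, against 0.902% and 3.39% of all genes tested. The median was -0.15, with 8 members above 0. Krt5 stood at 2227 and 2371 CPM against 2617 and 2753 CPM (-0.22 ± 0.10, adjusted p = 0.285). Col17a1 stood at 1099.5 and 1159 CPM against 1326 and 1465 CPM (-0.30 ± 0.10, adjusted p = 0.121). Neither gene was called, and neither overlapped between the populations. Krt14, a basal keratin, stood at 5268 and 3876 CPM against 6236 and 4401 CPM (-0.21 ± 0.10), and overlapped. Krt17, another basal keratin, stood at 2568 and 2670 CPM against 3830 and 3692 CPM, a difference of -0.52 ± 0.11 (adjusted p = 0.0156). Mme, the surface peptidase CD10, stood at 404 and 323 CPM against 553 and 513 CPM, a difference of -0.56 ± 0.10 (adjusted p = 0.00679). Both calls were lost without either Lgr5-T8hi library (0.503 and 0.0667 for Krt17, 0.0689 and 0.181 for Mme) or without Lgr5+T8- replicate 2 (0.144 and 0.0789), and that of Krt17 also without Lgr5+T8- replicate 1 (0.0924).

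The lowest log2 fold changes at a mean of 5 CPM or more included gap junction, calcium release and matrix genes. Gjb2, connexin 26 (Entrez 14619, chromosome 14, 57098602 to 57104702), was at 1.54 and 2.64 CPM in Lgr5-T8hi cells against 8.63 and 8.41 CPM, a difference of -2.05 ± 0.24 (adjusted p = 0.000697). Ryr3, a ryanodine receptor that releases stored calcium, stood at 3.54 and 2.24 CPM against 12.3 and 6.74 CPM, a difference of -1.70 ± 0.20 (adjusted p = 0.000644). Tnc, the matrix protein tenascin C, stood at 26.4 and 19.0 CPM against 60.6 and 51.9 CPM, a difference of -1.33 ± 0.16 (adjusted p = 0.00238). All 3 genes were lower in both Lgr5-T8hi libraries than in either Lgr5+T8- library. Postn, periostin, a matrix protein that binds tenascin C, was far more abundant, at 2079 and 1550.5 CPM against 3911 and 2871 CPM, with a difference of -0.90 ± 0.10. Ptprz1, a receptor phosphatase that binds pleiotrophin, differed by -1.21 ± 0.16, Pamr1 by -1.29 ± 0.13, the somatostatin receptor Sstr3 by -0.99 ± 0.13 and the calmodulin-dependent kinase Pnck by -0.87 ± 0.13. Each of these 8 genes kept its call whichever library was left out, and Gjb2 and Pamr1 kept it without the batch block. Frmpd4, Asb2, Sh3bgr and Popdc2 differed by -1.10 ± 0.19, -0.96 ± 0.16, -0.93 ± 0.13 and -0.87 ± 0.17. Without Lgr5-T8hi replicate 1 their adjusted p was 0.0881, 0.0573, 0.0536 and 0.0853. Frmpd4, Asb2 and Popdc2 also lost their call without Lgr5+T8- replicate 1 (0.111, 0.0535 and 0.147), Frmpd4 and Popdc2 without Lgr5-T8hi replicate 2 (0.0507 and 0.0959), and Popdc2 without Lgr5+T8hi replicate 1 (0.0512).

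Most genes of the R-spondin and Wnt axis were not called. The counts below stand beside 3.39% higher and 0.902% lower over all genes tested. Besides Lgr5 itself, 0 of the other 6 tested members of the Lgr receptor and R-spondin axis passed the test. The receptor Lgr4 stood at 231 and 242 CPM against 230 and 250 CPM (-0.02 ± 0.09), and the receptor Lgr6 at 81.7 and 120 CPM against 64.3 and 127 CPM (0.12 ± 0.13). The ubiquitin ligases Rnf43 and Znrf3, which remove Wnt receptors and which R-spondins inhibit, differed by 0.06 ± 0.10 and 0.03 ± 0.15. In these 4 genes the populations overlapped. Of the R-spondins tested, Rspo1 stood at 1.48 and 3.17 CPM against 0.976 and 1.48 CPM (0.87 ± 0.45, adjusted p = 0.438), and Rspo4 was at or under the floor of 3 counts in each library. Among 28 Wnt ligands and receptors, 1 was higher and 2 lower, with 4 and 7 at an unadjusted p under 0.05 by edgeR's test. Over all 16526 genes tested, 1477 were higher and 1040 lower at that unadjusted threshold. The ligand Wnt11 stood at 164 and 149 CPM against 267 and 228 CPM, a difference of -0.66 ± 0.10 (adjusted p = 0.00262), and the ligand Wnt10a at 46.9 and 63.6 CPM against 72.7 and 103 CPM, a difference of -0.66 ± 0.12 (adjusted p = 0.0102). The receptor Fzd4 stood at 11.2 and 12.4 CPM against 6.93 and 7.10 CPM, a difference of 0.74 ± 0.14 (adjusted p = 0.0101). Both ligands were thus lower, and the receptor higher, in the cells without the Lgr5 signal, with no overlap. Among 12 secreted inhibitors, Sfrp5 was higher (8.35 and 8.04 CPM against 1.45 and 2.31 CPM, 2.16 ± 0.24) and Dkk3 lower (225 and 225 CPM against 303 and 281 CPM, -0.37 ± 0.09). By edgeR's test 0 of 14 Wnt target genes were higher and 0 lower, with 0 and 2 at an unadjusted p under 0.05. Without Lgr5-T8hi replicate 1 the adjusted p was 0.0943 for Wnt11, 0.171 for Wnt10a, 0.106 for Fzd4 and 0.69 for Dkk3. Without Lgr5+T8- replicate 2 it was 0.128 for Wnt10a, 0.123 for Fzd4 and 0.127 for Dkk3, and Dkk3 also lost its call without Lgr5-T8hi replicate 2 (0.272), Lgr5+T8- replicate 1 (0.265), Lgr5+T8hi replicate 1 (0.0891) or replicate 2 (0.0701).

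Among 26 further tetraspanins, 2 were higher and 0 lower, against 3.39% and 0.902% of all genes tested. Tspan15, which guides the protease ADAM10, stood at 13.8 and 17.7 CPM in Lgr5-T8hi cells against 7.75 and 10.5 CPM (0.79 ± 0.13, adjusted p = 0.00537). Tspan7 stood at 37.8 and 51.0 CPM against 25.1 and 35.2 CPM (0.56 ± 0.10, adjusted p = 0.00637). Neither gene overlapped between the populations. Tspan7 lost its call without Lgr5-T8hi replicate 2 (0.0882) or Lgr5+T8- replicate 1 (0.057).

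Of 25 genes of the Notch pathway, 3 were higher and 0 lower. Notch3, a receptor that is also a pericyte marker (Entrez 18131, chromosome 17, 32120820 to 32166896), was at 66.7 and 50.5 CPM in Lgr5-T8hi cells against 18.1 and 17.8 CPM, a difference of 1.70 ± 0.14 (adjusted p = 0.000175). Heyl, a Notch target, stood at 7.09 and 5.19 CPM against 2.30 and 1.36 CPM, a difference of 1.74 ± 0.21 (adjusted p = 0.000897). Notch1 stood at 213 and 162 CPM against 155 and 116 CPM, a difference of 0.47 ± 0.11 (adjusted p = 0.0285). All 3 were higher in the Lgr5-T8hi libraries with no overlap. The median of the Notch list was 0.06. Hes1 and Nrarp, other members of the list, were not called and went in opposite directions. They differed by -0.33 ± 0.12 (adjusted p = 0.18) and 0.37 ± 0.12 (adjusted p = 0.118). Notch1 lost its call without either Lgr5-T8hi library (0.351 and 0.077) or without Lgr5+T8- replicate 2 (0.253).

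Transcription factors of epithelial-mesenchymal transition gave 4 higher and 0 lower of 15. Zeb2 stood at 18.9 and 11.9 CPM in Lgr5-T8hi cells against 2.99 and 2.35 CPM, a difference of 2.51 ± 0.27 (adjusted p = 0.0016). Zeb1 stood at 5.30 and 6.29 CPM against 2.11 and 1.44 CPM, a difference of 1.69 ± 0.22 (adjusted p = 0.00117). Foxc1 stood at 43.6 and 28.2 CPM against 20.6 and 11.4 CPM, a difference of 1.18 ± 0.13 (adjusted p = 0.000644). These 3 factors were higher in both Lgr5-T8hi libraries and kept their call whichever library was left out. Prrx1 differed by 0.54 ± 0.14 and lost its call without 5 of the libraries: Lgr5-T8hi replicate 1 (0.611), either Lgr5+T8- library (0.16 and 0.202) and either Lgr5+T8hi library (0.078 and 0.0877). Zeb1 and Zeb2 are also expressed by stromal and glial cells.

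Axon guidance genes gave 8 higher and 2 lower of 51, and their median of 0.07 was close to that of all genes. Nrp1, a co-receptor for semaphorins and VEGF and a reported mammary stem cell marker, stood at 13.5 and 17.7 CPM in Lgr5-T8hi cells against 5.92 and 6.86 CPM, a difference of 1.28 ± 0.12 (adjusted p = 0.000208). Ntn1, netrin 1, stood at 23.1 and 25.8 CPM against 14.5 and 12.5 CPM, a difference of 0.84 ± 0.13 (adjusted p = 0.0028). The semaphorin Sema3g stood at 4.01 and 11.7 CPM against 1.89 and 2.91 CPM, a difference of 1.60 ± 0.22 (adjusted p = 0.00181). In each of these the populations did not overlap, and the calls held whichever library was left out. The lower members were Ntn4 (-0.42 ± 0.10), a netrin of basement membranes, and Ephb1 (-0.41 ± 0.08), an ephrin receptor named after its values were seen. Both lost their call without either Lgr5-T8hi library (Ntn4 0.28 and 0.328, Ephb1 0.359 and 0.158) or either Lgr5+T8- library (Ntn4 0.29 and 0.0751, Ephb1 0.0932 and 0.112), and the higher count was 4 without Lgr5+T8- replicate 2 and 0 without the batch block. Among 20 reported stem cell markers, 4 were higher and 1 lower, and Procr, the protein C receptor, overlapped between the populations at 82.9 and 39.7 CPM against 59.7 and 21.6 CPM (0.67 ± 0.11, adjusted p = 0.00355), higher in Lgr5-T8hi cells within each batch. Procr lost its call without Lgr5-T8hi replicate 2 (0.0662) or Lgr5+T8- replicate 2 (0.0614).

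Potassium channel genes gave 10 higher and 1 lower of 33, with a median of 0.64. Besides Kcna2, Kcna1 and Kcnn4, the channel subunit Kcne4 stood at 17.4 and 7.75 CPM in Lgr5-T8hi cells against 4.09 and 2.63 CPM, a difference of 1.86 ± 0.16 (adjusted p = 0.000133). The lower member was Kcnmb1, also a contractile gene. Without the batch block 2 were higher, and 4 when replicate 1 of Lgr5+T8- was left out. Among 38 calcium and TRP channel genes, 5 were higher and 2 lower, with Cacna1h, a T-type channel, at 7.25 and 4.45 CPM against 2.77 and 1.67 CPM (1.39 ± 0.18, adjusted p = 0.00121).

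Genes of growth factor binding and basement membrane differed in both directions. Among 20 genes of the IGF axis, 3 were higher and 1 lower. Igfbp5, a binding protein linked to involution of the gland, was among the most abundant genes that differed, at 7399 and 7061 CPM in Lgr5-T8hi cells against 5274 and 5098 CPM (0.48 ± 0.10, adjusted p = 0.0171). Igfbp4 stood at 53.1 and 62.0 CPM against 34.8 and 40.8 CPM (0.61 ± 0.09), and Igfbp2 at 49.2 and 49.9 CPM against 88.0 and 72.7 CPM (-0.69 ± 0.12). The binding proteins of 1 family thus differed in opposite directions, each without overlap. Among 28 basement membrane genes, 4 were higher and 1 lower. The laminin chains Lama2 and Lamc3 stood at 14.9 and 9.30 CPM against 3.40 and 3.23 CPM (1.86 ± 0.25), and at 9.70 and 8.28 CPM against 2.93 and 2.95 CPM (1.61 ± 0.16). The linker protein Nid1 stood at 126 and 118 CPM against 55.3 and 71.4 CPM (0.95 ± 0.11). Of 44 TGF-beta and BMP pathway genes, 3 were higher and 1 lower, against 3.39% and 0.902% of all genes tested. The BMP antagonist Chrdl1 had the largest difference of the called members, at 5.85 and 5.54 CPM against 1.76 and 1.12 CPM (1.97 ± 0.22). Of the genes in this paragraph, Igfbp5 lost its call without Lgr5-T8hi replicate 1 (0.284) or 2 (0.142) and Lgr5+T8- replicate 1 (0.0567) or 2 (0.18), and Igfbp2 without Lgr5-T8hi replicate 1 (0.123) or Lgr5+T8- replicate 1 (0.0874).

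Interferon-stimulated genes, part of the antiviral defence, gave 6 higher and 0 lower of 29, with a median of 0.40. The chemokine Cxcl9 stood at 13.4 and 12.0 CPM in Lgr5-T8hi cells against 3.94 and 5.34 CPM, a difference of 1.47 ± 0.17 (adjusted p = 0.000697). Ifit3, which binds viral RNA complexes, stood at 10.3 and 7.94 CPM against 3.75 and 3.03 CPM, a difference of 1.42 ± 0.16 (adjusted p = 0.000585). Rsad2, viperin, stood at 4.12 and 3.41 CPM against 2.14 and 0.758 CPM, a difference of 1.44 ± 0.27 (adjusted p = 0.00992). None of the 3 overlapped between the populations. Ifit1 differed by 0.77 ± 0.14, Cxcl10 by 0.85 ± 0.13 and Iigp1, named after its values were seen and one of a family of similar GTPases, by 0.94 ± 0.16. Rsad2 and Ifit1 lost their call without Lgr5-T8hi replicate 2 (0.0551 and 0.069) or Lgr5+T8- replicate 2 (0.0914 and 0.0925). Iigp1 lost it without Lgr5+T8- replicate 1 (0.0847) or 2 (0.0514). The count was 3 without Lgr5+T8- replicate 2 and 1, Cxcl9, without the batch block.

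The interferon response factors bind an element with a core of GAAA, any 2 bases and GAAA again. Searched on both strands in the same window as the CArG box, these letters were present for 11 of the 21 interferon-stimulated genes with a promoter in the table (52.4%) and for 3.46% of all 27025 genes. They were present for Ifit3, Ifit1, Rsad2 and Cxcl10 among the higher genes. Most of the 11 genes with the letters were not called, among them Isg15 and Stat2. Of the other higher genes, Cxcl9 had a window without the letters and Iigp1 had no window. The letters thus did not separate called from uncalled members. The windows of 3 higher genes are shown, with the letters in capitals as they read on the gene's strand, where TTTC, 2 bases and TTTC is the reverse complement. They are chr19:34583279-34583528 (plus strand) for Ifit3, chr19:34640639-34640888 (plus strand) for Ifit1 and chr12:26456453-26456702 (minus strand) for Rsad2:
Ifit3: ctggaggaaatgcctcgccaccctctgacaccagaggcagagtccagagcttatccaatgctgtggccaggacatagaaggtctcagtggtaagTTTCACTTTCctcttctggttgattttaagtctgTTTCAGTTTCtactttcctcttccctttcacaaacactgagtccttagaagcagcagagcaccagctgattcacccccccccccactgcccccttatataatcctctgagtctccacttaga
Ifit1: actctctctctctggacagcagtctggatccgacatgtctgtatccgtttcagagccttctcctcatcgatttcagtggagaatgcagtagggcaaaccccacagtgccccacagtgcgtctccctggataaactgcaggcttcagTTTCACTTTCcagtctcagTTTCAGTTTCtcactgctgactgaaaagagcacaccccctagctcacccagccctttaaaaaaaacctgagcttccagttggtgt
Rsad2: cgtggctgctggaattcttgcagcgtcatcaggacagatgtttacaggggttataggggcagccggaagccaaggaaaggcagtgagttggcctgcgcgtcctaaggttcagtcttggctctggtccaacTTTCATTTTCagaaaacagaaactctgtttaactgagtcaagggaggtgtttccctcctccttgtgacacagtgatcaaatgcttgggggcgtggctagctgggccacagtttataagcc
Ifit3 and Ifit1 thus carry 2 matches each and Rsad2 carries 1, starting 120 bases before its start. The Ifit3 window lies inside the span of that gene (34583119 to 34588982), so the start used is not the first base of the span. Binding was not measured.

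Chemokines and cytokines gave 5 higher and 0 lower of 37, with a median of 0.40. The alarmin Il33 stood at 7.72 and 7.51 CPM in Lgr5-T8hi cells against 3.21 and 1.91 CPM, a difference of 1.57 ± 0.20 (adjusted p = 0.000961). The cytokine Il6 stood at 78.2 and 59.2 CPM against 46.7 and 25.2 CPM, a difference of 1.00 ± 0.14 (adjusted p = 0.00397). The interleukin 1 receptor Il1r1 stood at 22.3 and 18.9 CPM against 12.7 and 8.21 CPM, a difference of 1.01 ± 0.13 (adjusted p = 0.00121). Each was higher in both Lgr5-T8hi libraries and kept its call whichever library was left out, but none kept it without the batch block.

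Proliferation genes stood lower in Lgr5-T8hi cells, and how many passed the test depended on the libraries fitted. Of 45, 2 were lower and 0 higher, against 26 and 0 when only the 4 libraries were fitted, and the median of -0.77 came from -0.37 in batch 1 and -0.97 in batch 2. The mitotic gene Cdca3 stood at 1.59 and 9.003 CPM in Lgr5-T8hi cells against 3.34 and 19.9 CPM (-1.10 ± 0.26, adjusted p = 0.0466). Kif20a, a mitotic kinesin, stood at 10.9 and 24.98 CPM against 15.7 and 45.5 CPM (-0.71 ± 0.15, adjusted p = 0.0176). Both genes were higher in replicate 2 than in replicate 1 of either population, so the populations overlapped while each batch gave the same direction. Mki67, the common marker of cycling cells and named after its values were seen, showed the same layout at 19.2 and 59.9 CPM against 28.1 and 127 CPM (-0.87 ± 0.49, adjusted p = 0.543), and passed in the fit of the 4 libraries alone (0.00257). The number of lower members ran from 0 without Lgr5-T8hi replicate 1 to 23 without Lgr5+T8- replicate 1, and was 0 without the batch block. The list's median was -0.21 without Lgr5+T8- replicate 2. Cdca3 lost its call without Lgr5-T8hi replicate 1 (0.259), Lgr5+T8- replicate 2 (0.461) or Lgr5+T8hi replicate 1 (0.0554), and Kif20a without Lgr5-T8hi replicate 1 (0.143) or 2 (0.0769) or Lgr5+T8- replicate 2 (0.237). Immediate early and stress genes, which respond to tissue dissociation, gave 0 higher and 0 lower of 31 by edgeR, with 4 and 0 at an unadjusted p under 0.05 and 22 members above 0. The higher count was 6 in the 4 libraries alone, 3 when either Lgr5-T8- library was left out, 2 when replicate 1 of Lgr5+T8- was left out and 1 with DESeq2.

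Markers of other cell types were higher in Lgr5-T8hi cells for several types, and in bulk samples fewer cells of a type and less RNA per cell cannot be told apart. Schwann cell markers gave 6 higher and 0 lower of 12, with a median of 1.08, and their summed level was 507 and 396 CPM in Lgr5-T8hi cells against 414 and 332 CPM. Cdh19 and Gfra3 had the largest differences. The calcium-binding protein gene S100b stood at 2.97 and 1.41 CPM against 0.599 and 0.239 CPM (2.33 ± 0.42) and the myelin gene Mbp at 45.8 and 38.4 CPM against 32.1 and 24.8 CPM (0.57 ± 0.09). Sox10, which mammary epithelium also expresses, was among the members that did not pass, at 124 and 126 CPM against 145 and 131 CPM. These values stand beside the Kcna2, Kcna1, L1cam and Zeb2 differences, and their part in those was not tested. The number of higher Schwann markers fell to 2 without Lgr5+T8- replicate 2, where S100b (0.0771) and Mbp (0.0623) lost their call, and to 2 without the batch block. S100b also lost it without Lgr5-T8hi replicate 1 (0.123).

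Fibroblast markers gave 9 higher and 1 lower of 19, with a median of 0.99. The direction was mixed, with 14 of the 19 above 0. Both Lgr5-T8hi libraries lay above both Lgr5+T8- libraries for 12 members and below them for 4, Postn among the 4. The collagen genes Col1a2 and Col6a3 stood at 166 and 132 CPM in Lgr5-T8hi cells against 65.9 and 64.5 CPM (1.20 ± 0.13), and at 38.6 and 30.5 CPM against 10.9 and 10.9 CPM (1.66 ± 0.16). Pdgfra, the receptor that defines many fibroblasts, stood at 16.1 and 16.2 CPM against 6.43 and 7.30 CPM (1.24 ± 0.14). In these genes both Lgr5-T8hi libraries lay above both Lgr5+T8- libraries. The member called lower was Postn, whose level made up much of the summed fibroblast level of 3997 and 3201 CPM against 5278 and 4228 CPM. Pericyte markers gave 6 higher and 1 lower of 11, led by Notch3, with a summed level of 483 and 370 CPM against 475 and 325 CPM. Mcam was the lower member, at 242 and 142 CPM against 360 and 190 CPM (-0.50 ± 0.11), and overlapped. Its call was lost without either Lgr5-T8hi library (0.331 and 0.157) or either Lgr5+T8- library (0.236 and 0.0599). Without the batch block 3 fibroblast markers and 1 pericyte marker were higher, and 6 and 4 without Lgr5-T8hi replicate 1. Of the marker lists named here, each had 0 members at 0 counts in all 4 libraries. The fibroblast and pericyte values stand beside the collagen, laminin, Notch3 and Des differences, and their part in those was not tested.

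Endothelial markers stood higher mainly in batch 2. Batch 1 gave a median of 0.07 and batch 2 of 1.55, and 2 of 20 were higher and 0 lower. The summed level was 389 and 730 CPM in Lgr5-T8hi cells against 364 and 259 CPM, so Lgr5-T8hi replicate 2 stood apart. The higher members were Erg and Cd34. Erg stood at 6.73 and 7.56 CPM against 3.78 and 2.83 CPM (1.12 ± 0.18, adjusted p = 0.00431). Cd34 stood at 22.5 and 32.9 CPM against 16.1 and 14.3 CPM (0.84 ± 0.15, adjusted p = 0.00959). Both were higher in each batch, with no overlap and the larger difference in batch 2. Pecam1, a defining endothelial marker named after its values were seen, stood at 31.8 and 73.4 CPM against 32.3 and 25.2 CPM (0.79 ± 0.38, adjusted p = 0.457). Without Lgr5-T8hi replicate 1 there were 14 higher members, and Pecam1 passed (0.00295), and without Lgr5-T8hi replicate 2 there were 0. Immune cell markers gave 0 higher and 0 lower of 19 by edgeR, with 7 and 0 at an unadjusted p under 0.05, and a summed level of 71.1 and 91.9 CPM against 51.5 and 84.3 CPM. Ptprc, which encodes the leukocyte antigen CD45, stood at 2.42 and 2.02 CPM against 1.04 and 1.12 CPM (1.04 ± 0.27, adjusted p = 0.0502). It passed with no filter (0.0315), in the 4 libraries alone (0.0294) and when replicate 2 of Lgr5-T8hi (0.0373) or replicate 1 (0.0301) or 2 (0.0314) of Lgr5-T8- was left out. The immune count was then 2 or 3, was 2 with DESeq2 and was 1 when replicate 1 of Lgr5+T8- was left out. These values stand beside the interferon-stimulated and chemokine differences, and their part in those was not tested. Adipocyte markers gave 3 higher and 1 lower of 8, with the lipase Lpl at 13.5 and 11.9 CPM against 4.72 and 4.98 CPM (1.39 ± 0.15) and Lep, leptin, at 0.714 and 0.666 CPM against 1.67 and 1.59 CPM (-1.24 ± 0.29). Lep lost its call without either Lgr5-T8hi library (0.18 and 0.279), Lgr5+T8- library (0.198 and 0.104) or Lgr5+T8hi library (0.0661 and 0.0569). Ribosomal protein genes gave 0 higher and 0 lower of 38 by edgeR, with 0 and 0 at an unadjusted p under 0.05.

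**Figure D5:**
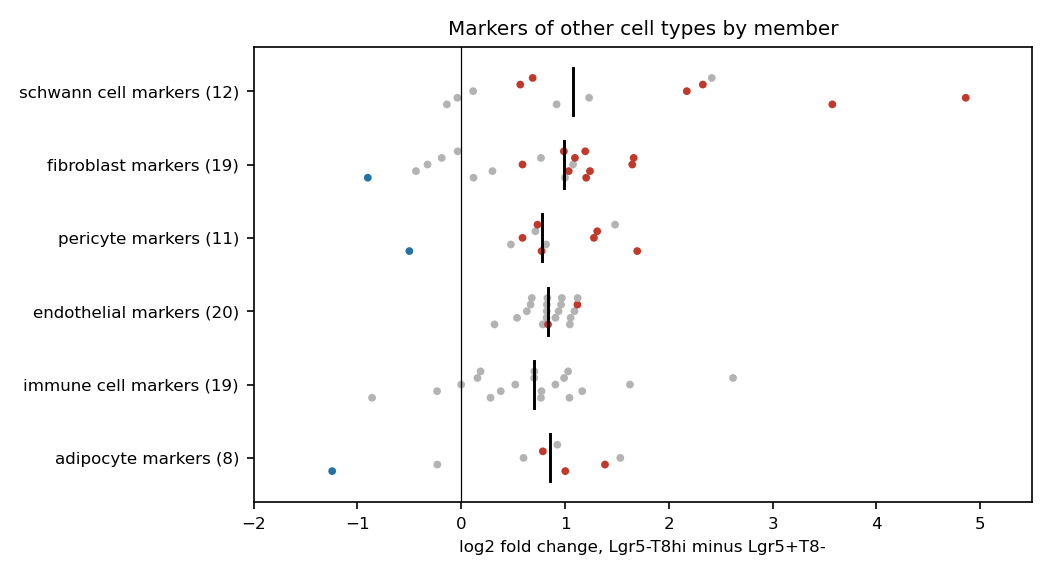
Each point is the log2 fold change, Lgr5-T8hi minus Lgr5+T8-, of 1 tested member of the marker list named at the left, with the number of members in brackets. Red points are higher and blue points lower calls and black bars are medians, all of which lie above 0, from 0.70 for immune cell markers to 1.08 for Schwann cell markers.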

How the data were processed

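Total RNA of sorted cells was sequenced single-end, per the labels' protocols. The deposited files hold the authors' raw read counts for 27164 Entrez genes and another column with gene length in bases. Tools listed in the submitters' processing notes are limma 3.24.14, edgeR 3.10.2, featureCounts and CASAVA 1.8.2, with the build mm10 (GRCm38). The aligner and the use of strand are not given in the sources used here, so overlapping genes and near-identical copies are uncertain. RefSeq GRCm38.p6 named 25260 genes, and unmatched identifiers held 2.56 to 2.72% of the counts of the 4 libraries.

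Counts of all 8 libraries were fitted with edgeR 4.0.16 (R 4.3.3): TMM, filterByExpr (minimum count 10), population plus batch, 3 residual degrees of freedom, a robust two-sided quasi-likelihood test and a threshold of 0.05. CPM used TMM-adjusted library sizes. Differences within a batch used log2 CPM with a prior count of 2. The labels state the batch, and libraries of the same number deviated together (r = 0.541 for these populations), so the batch pairs them. Replicates differed far beyond sampling noise (chi-square per degree of freedom 49.5 and 53.2). On simulated counts of 16368 genes, 200 genes averaging 5 CPM or more were changed, with the spread of each gene as fitted here. The test recovered 68.5% of 1.5-fold and 98% of 2-fold changes. False calls were 12.2 and 14.4% of calls, above the threshold of 0.05. Recovery of changes in genes under 5 CPM, among them 283 of the 561 higher genes, was not simulated.

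Members and gene lists were chosen with earlier results of these data known. Named genes were the sort markers, all members of the R-spondin axis, the 15 highest and 15 lowest log2 fold changes among called genes with at least 5 CPM and equal sign in both batches, and from each of 40 lists up to 5 members of smallest p with any sole member of its direction. Unnamed and predicted genes were skipped, and some results are not reported here. Kit, Krt8, Epcam, Acta2, Myocd, Myl9, Krt14, Ephb1, Iigp1, Isg15, Stat2, Mki67, Sox10, Pecam1 and the genes of the other observations fall outside this rule and were chosen after their values were seen. Promoter sequences are from RefSeq (GRCm38.p6). Alternatives were a fit without the block, RLE scaling, other filters, DESeq2 1.42.0, limma-voom 3.58.1, a fit of the 4 libraries alone and leaving out each library. A population left with 1 library was assumed to vary like the others.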

Additional observations from a re-analysis of the deposited data

How the results depend on the processing

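Counts of higher and lower genes were 561 and 149. Without the batch block they were 54 and 3, against 837 and 403 when only the 4 libraries were fitted, and leaving out 1 library gave 260 to 780 and 20 to 350. RLE scaling gave 549 and 127, no filter 634 and 195, requiring 1 CPM or more in 2 libraries 490 and 119, DESeq2 546 and 167 and limma-voom 524 and 150. Of the 546 and 167 genes called by DESeq2, 470 and 120 were among the 561 and 149. The labels state the batch that pairs the libraries, and no pairing across populations other than the batch was tried. Most named genes were followed one by one through the alternatives. Krt5, Col17a1, Erg, Cd34, Hes1, Nrarp and the genes under other observations were not. Of the genes followed, 70 lost their call without the batch block, and 0 changed sign. Beyond leaving out libraries and the block, lost calls were those of Kcna2, Cdh19, Kcna1, Prrx1 and Cdca3 with limma-voom (adjusted p = 0.0674, 0.198, 0.0806, 0.0682 and 0.0526), Areg, Prrx1 and Lep with DESeq2 (0.0524, 0.0524 and 0.105), Cdh19, Kcna1 and Cldn4 with no filter (0.172, 0.116 and 0.105), Myl9 and Cdca3 with RLE (0.0529 and 0.0532) and with the filter of 1 CPM (0.0608 and 0.0577), and Cldn7 and Cldn4 in the 4 libraries alone (0.202 and 0.364). Calls gained were those of Ptprc with no filter (0.0315) and of Ptprc and Mki67 in the 4 libraries alone (0.0294 and 0.00257). Among the genes followed, the sign changed for 6, none of them called, when 1 library was left out: Lgr4 (-0.0404 to 0.0295), Lgr6 (-0.0689 to 0.364), Rnf43 (-0.0843 to 0.24), Znrf3 (-0.21 to 0.328), Krt8 (-0.0783 to 0.137) and Epcam (-0.0966 to 0.0353). The spread behind each call was estimated over all 8 libraries with 3 residual degrees of freedom.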

Other observations

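Several genes of skeletal muscle were higher in Lgr5-T8hi cells at low level. The 22 genes were listed after their values were seen, so their count is a description. Of these, 14 were higher and 0 lower, with a median log2 fold change of 1.93, also with the member at 0 counts in both Lgr5+T8- libraries set at its bound. Their summed level was 47.0 and 28.1 CPM in the Lgr5-T8hi libraries against 19.2 and 16.8 CPM in the Lgr5+T8- libraries. Acta1, skeletal muscle actin, stood at 3.71 and 2.96 CPM against 1.42 and 0.439 CPM. Atp2a1, the calcium pump of fast muscle, stood at 4.31 and 2.37 CPM against 0.882 and 0.758 CPM, and Ckm, muscle creatine kinase, at 2.31 and 1.57 CPM against 0.473 and 0.439 CPM. In these 3 genes both Lgr5-T8hi libraries were above both of the other population. The listed genes did not all share this direction. Myh2, a fast myosin heavy chain, stood at 2.33 and 1.87 CPM against 2.93 and 3.71 CPM, and Mybpc2, a myosin-binding protein of fast muscle, at 2.66 and 2.32 CPM against 3.84 and 3.75 CPM. Both were below in each Lgr5-T8hi library without passing the test, with log2 fold changes of -0.65 and -0.61. Mb, myoglobin, was close between the populations, at 2.72 and 1.89 CPM against 1.98 and 1.83 CPM.

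Genes of acid-secreting cells were also noticed after their values were seen. Atp6v1b1, a proton pump subunit of such cells, stood at 51.4 and 31.9 CPM in the Lgr5-T8hi libraries against 19.6 and 7.58 CPM. The transcription factor Foxi1, which directs the expression of this pump in kidney and inner ear, stood at 1.10 and 1.09 CPM against 0.347 and 0.0399 CPM, the last value being 1 count.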
